A study of Mus musculus with 2 samples.

Results

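The genes of the proteasome were examined in LSK cells, the lineage-negative, Sca-1 and c-Kit positive fraction of bone marrow that holds blood stem cells and multipotent progenitors. Members were all non-control probes whose gene name, in both scanner files, began with Psm, a letter from a to g and a digit. They were 69 probes of 44 genes, among 41170 probes of 27595 genes in all. Sorted LSK cells of C57BL/6 mice were hybridised on 1 array for wild-type and 1 array for PAD4-deficient cells. PAD4 is an enzyme that converts arginine to citrulline in histones and other proteins. The deficient allele, the age and sex of the mice and the number of mice behind each RNA are not stated in the labels. Since each genotype was read on 1 array, the differences below have no replicate check and no test was made.

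The proteasome degrades proteins that carry ubiquitin chains. Its core particle is a barrel of outer alpha rings, which gate the entrance, and inner beta rings, of which the subunits encoded by Psmb5, Psmb6 and Psmb7 cut proteins. Cells of the blood and cells exposed to interferon gamma build in Psmb8, Psmb9 and Psmb10 instead, which gives the immunoproteasome and changes the peptides that reach MHC class I. A regulatory particle, with a base of ATPases and a lid, binds, unfolds and deubiquitinates substrates. The alternative activators encoded by the Psme genes open the core without ubiquitin. Blood stem cells are known to be sensitive to the rate at which they make and degrade proteins.

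Upstream sequences are shown for the cutting subunits Psmb5 and Psmb6, for the immunosubunits Psmb8 and Psmb9 that take their places, and for Psmf1, the member furthest below the wild-type array. Each is the 250 bases before the RefSeq gene start on GRCm38.p6, written 5′ to 3′ along the gene's strand. The windows are chr14:54617996-54618245, minus strand for Psmb5; chr17:34197945-34198194, plus strand for Psmb8; chr11:70525107-70525356, plus strand for Psmb6; chr17:34187331-34187580, minus strand for Psmb9; and chr2:151741311-151741560, minus strand for Psmf1. Capitals mark matches, on either strand, to CCAAT (bound by NF-Y), GGGCGG (the GC box), TGACNNNGC (the core of the antioxidant response element, bound by the proteasome regulator NRF1) and GAAA followed by GAAA with 2 bases between (the core of the interferon-stimulated element).
Psmb5: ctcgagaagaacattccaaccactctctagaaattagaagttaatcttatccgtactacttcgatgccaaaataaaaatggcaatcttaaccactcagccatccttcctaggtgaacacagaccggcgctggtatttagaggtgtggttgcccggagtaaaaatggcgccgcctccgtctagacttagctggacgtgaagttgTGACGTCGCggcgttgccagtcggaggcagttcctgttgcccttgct
Psmb8: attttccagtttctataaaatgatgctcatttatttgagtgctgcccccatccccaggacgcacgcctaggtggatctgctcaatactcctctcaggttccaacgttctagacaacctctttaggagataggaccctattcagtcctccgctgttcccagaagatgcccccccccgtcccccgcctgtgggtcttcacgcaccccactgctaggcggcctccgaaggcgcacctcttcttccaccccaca
Psmb6: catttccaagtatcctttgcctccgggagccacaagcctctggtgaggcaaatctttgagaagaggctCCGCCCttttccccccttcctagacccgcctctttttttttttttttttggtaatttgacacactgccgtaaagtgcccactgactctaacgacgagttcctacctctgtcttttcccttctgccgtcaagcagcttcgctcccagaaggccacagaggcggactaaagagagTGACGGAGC
Psmb9: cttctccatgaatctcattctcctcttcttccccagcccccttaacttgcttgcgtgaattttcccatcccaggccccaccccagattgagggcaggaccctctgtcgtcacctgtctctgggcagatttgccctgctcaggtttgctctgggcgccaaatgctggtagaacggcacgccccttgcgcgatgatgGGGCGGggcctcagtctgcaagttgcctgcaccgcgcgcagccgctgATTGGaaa
Psmf1: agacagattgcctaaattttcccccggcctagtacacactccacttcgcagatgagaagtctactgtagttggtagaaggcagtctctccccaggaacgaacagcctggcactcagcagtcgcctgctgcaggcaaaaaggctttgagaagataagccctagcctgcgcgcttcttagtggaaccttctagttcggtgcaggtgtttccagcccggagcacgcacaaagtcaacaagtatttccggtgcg

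In these windows Psmb5 and Psmb6 each held 1 match to TGACNNNGC, 47 to 39 and 9 to 1 bases before the start. Psmb6 and Psmb9 each held 1 GC box, and Psmb9 held 1 CCAAT match. Psmb8 and Psmf1 held none of the 4 motifs in the window shown. No match shown shared bases with another. The RefSeq table held 40 windows for 37 of the 44 members. TGACNNNGC was found in 5 of the 40 (12.5%) and in 10.2% of all 32851 windows. GGGCGG was found in 22 (55.0%) and in 32.7% of all windows, CCAAT in 14 (35.0%) and 33.8%, and the interferon-stimulated core in 3 (7.5%) and 2.98%. Those 3 windows were of Psmb3, Psmd4 and Psmd9, none of them an immunosubunit. Such matches are letters in a window and were not measured as binding sites.

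Signals are the scanner software's background-subtracted spot brightness, and a log2 difference is PAD4-deficient minus wild-type after each array was divided by its 75th percentile (814 and 787), so that equal signals give a difference slightly above 0. The processed signal of Padi4, the targeted gene, was 12879 in wild-type and 2669.7 in PAD4-deficient cells, which is -2.22 on the log2 scale (scanner error 0.20). All 6 genes of the LSK gate and its subsets were measured. Kit had signals of 9339 and 9451 (0.07), Ly6a 2637 and 2312 (-0.14) and Cd34 95103 and 85480.0 (-0.10). The subset markers lay further apart: Flt3 had 2439 and 1481 (-0.67, past 1.5-fold), Slamf1 93.9 and 125 (0.47) and Cd48 5926 and 6774 (0.24). Of the lineage panel, which the sort should deplete, 6 genes were on the array and 4 were measured, with a median of 0.30 and summed signals of 501 and 711; Cd8a cleared background in PAD4-deficient cells alone (9.74 and 75.5, at least 4.42-fold). The arrays also differed in genes of mature or committed blood cells and in sex-linked transcripts. Past 1.5-fold in favour of the PAD4-deficient array were 5 of 8 measured erythroid markers, 3 of 9 neutrophil, 6 of 10 monocyte, macrophage and dendritic, and 3 of 7 B cell markers; of 5 T and NK cell markers 1 was higher and 1 lower. The summed signals of these lists on the wild-type and PAD4-deficient arrays were 24017 and 24688 (erythroid), 122190 and 179870 (neutrophil), 17979 and 31864 (monocyte, macrophage and dendritic), 7247 and 9221 (B cell), and 17373 and 16654 (T and NK cell). The erythroid sum was mostly Car2 and the T and NK cell sum mostly Nkg7; without them, chosen as the genes of highest signal after seeing the data, the sums were 1296 and 2730.2 (erythroid) and 425 and 538 (T and NK cell). The medians of the measured markers were 1.254 (erythroid), 0.58 (neutrophil), 0.73 (monocyte, macrophage and dendritic), 0.55 (B cell) and 0.33 (T and NK cell). Cd3g and Ncr1 were below background on both arrays, and Cd3d was above it on the PAD4-deficient array alone (at least 1.29-fold). Xist, measured in PAD4-deficient cells alone (signals of 3.93 and 16255), was at least 951-fold higher there. The Y-linked genes Ddx3y (3455 and 1297.5, -1.36), Eif2s3y (2611 and 1076, -1.23) and Kdm5d (248 and 106, -1.17) were lower there but still measured. Xist and Y-linked transcripts were thus both present on the PAD4-deficient array. The part of these cells and of sex in the proteasome values was not tested, and in sorted bulk RNA fewer cells of a type and less RNA per cell cannot be told apart.

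All 44 members were measured, that is, well above background on both arrays, and none differed by 1.5-fold in either direction. In the whole set of 17019 measured genes, 2.88% were higher on the PAD4-deficient array by 1.5-fold or more and 1.87% were lower by as much. The members lay slightly above the wild-type array together: 39 of 44 had a log2 difference above 0, against 55.0% of all measured genes, and 5 were below 0, against 45.0%. Their median difference was 0.11 with an interquartile range of 0.095, and that of all measured genes was 0.02 with an interquartile range of 0.27. The lowest member was Psmf1 at -0.28 and the highest Psmd7 at 0.35. With the arrays scaled to their medians, the members' median was 0.056 and 35 of 44 were above 0, against 43.6% of all genes. The distance between the members' median and that of all genes was 0.088 under both scalings. It was 0.047 with no filter on dim genes, where 62.6% of all 27595 genes were above 0 and the members above the all-gene median numbered 33 in place of 39.

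**Figure D1:**
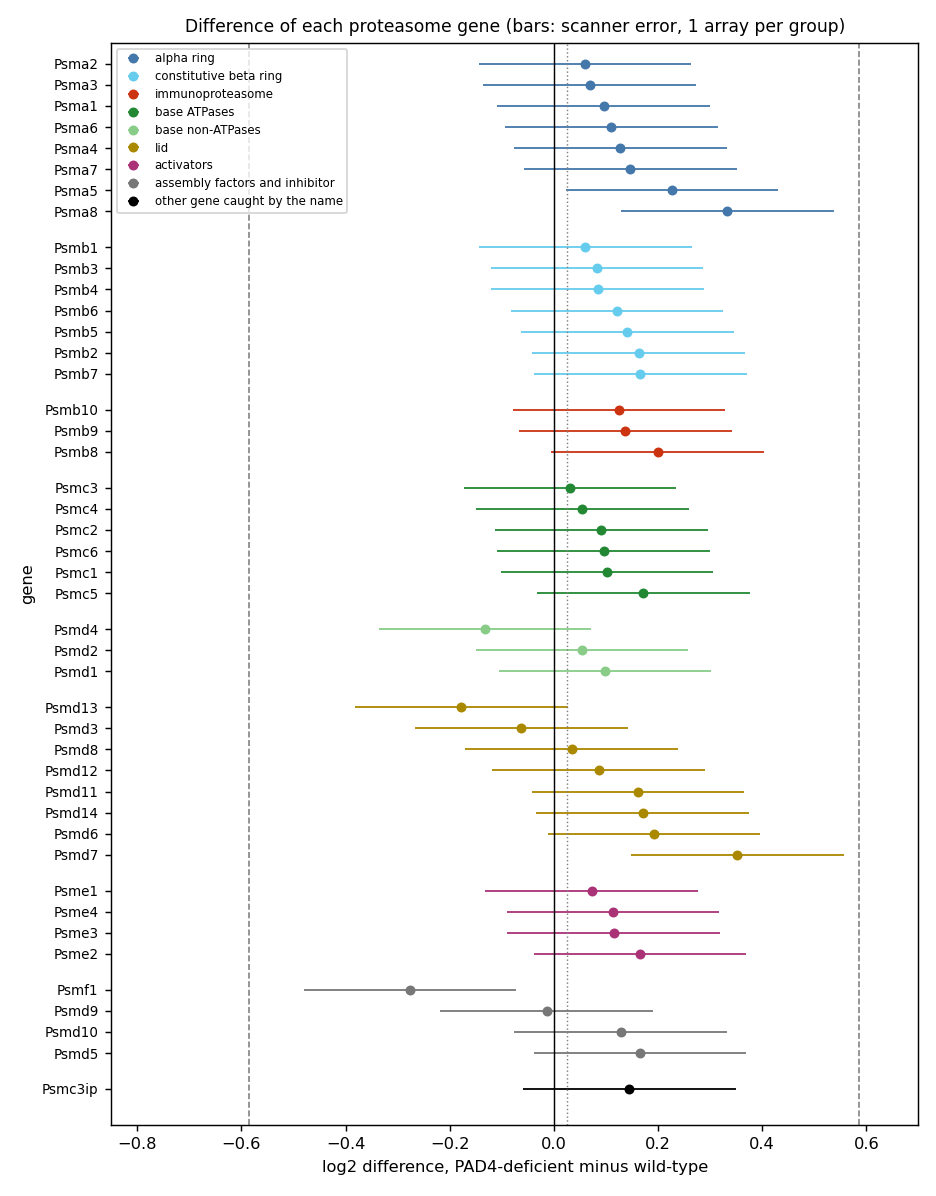
Each point is the log2 difference (PAD4-deficient minus wild-type) of 1 of the 44 genes by its brightest measured probe, coloured by role, with a bar of the scanner error on each side; the dotted line is the median of all measured genes (0.02) and the dashed lines are 1.5-fold. Points lie between -0.28 (Psmf1) and 0.35 (Psmd7), and 39 lie above 0.

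Most of these differences were small beside the error that the scanner software assigns. The scanner software's error for a difference was 0.20 for every member, and it covers the spot and not the variation between mice. It is the software's own estimate and hardly varied between members. Between repeated spots of a probe, the median standard deviation of the log2 signal was 0.0775 (wild-type) and 0.0776 (PAD4-deficient). A difference below the scanner error was therefore not shown to be spot noise. Only 4 of 44 members (9.09%), Psma5, Psma8, Psmd7 and Psmf1, differed by more than that error, against 30.4% of all measured genes. All 44 members were brighter than the 75th percentile of all probes on both arrays, and bright genes varied less. Among the 3404 genes with signals of 4254 or more, which held 35 members, the median absolute difference was 0.11 both for the members and for all genes. In that set the members' interquartile range was 0.083 and that of all genes 0.21. The members' median there was 0.10 and that of all genes 0.03. At a lower threshold of 0.32 on the log2 scale, 2 members (Psma8 and Psmd7) were higher and none was lower, against 8.86% and 8.06% of all genes.

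**Figure D2:**
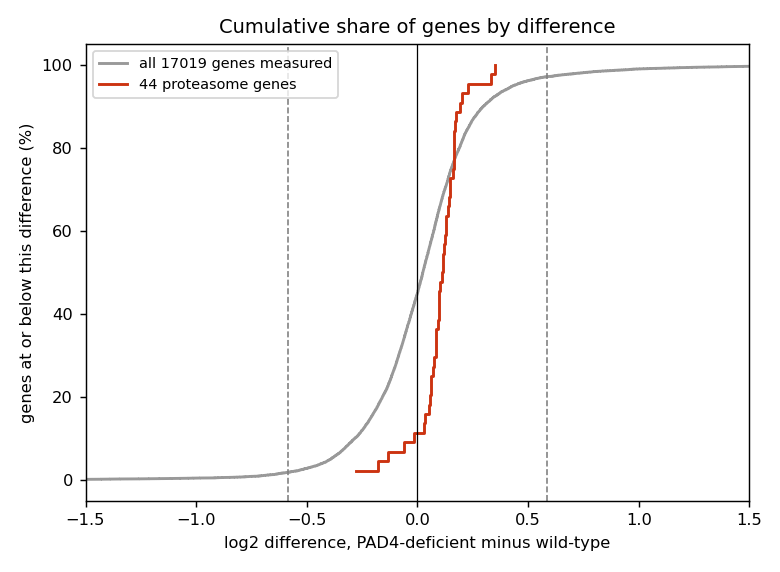
Cumulative share of genes (vertical axis, percent) at or below a given log2 difference (horizontal axis, PAD4-deficient minus wild-type; differences beyond 1.5 are not drawn) for the 44 proteasome genes and all 17019 measured genes, with dashed lines at 1.5-fold. The proteasome curve is steep and stays within -0.28 and 0.35.

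All 8 alpha ring genes lay above 0 (median 0.12). Psma2 gave signals of 42636.6 (wild-type) and 42928.5 (PAD4-deficient), a log2 difference of 0.06 and the lowest of the ring; signals below are given in this order. Psma5 (probe at chr3:108407892-108407951, mm8) had signals of 30302.4 and 34255.4, a difference of 0.23. Its value lay just beyond the scanner error of 0.204, but within it with loess scaling by intensity (0.198) and with median scaling (0.17). Psma1, Psma3, Psma4, Psma6 and Psma7 lay between 0.07 and 0.15. Psma8, the alpha subunit that testis uses in place of Psma7, had signals of 925 and 1126 and a difference of 0.33. Its single probe carried the accession of a cDNA clone rather than a RefSeq transcript.

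The constitutive beta ring differed little, with all 7 genes between 0.06 and 0.17 (median 0.12). Psmb5, which encodes the subunit with chymotrypsin-like activity, had signals of 8874 and 9453 (chr14:53568529-53568588, mm8), a difference of 0.14. Psmb6, the caspase-like subunit, had 27636.7 and 29034.0 (chr11:70343707-70343766) and differed by 0.12. Psmb7, the trypsin-like subunit, had 6016 and 6521 and differed by 0.17. All of them were brighter on the PAD4-deficient array by less than the scanner error. The lowest member was Psmb1, at 14061.9 and 14166 (difference 0.06). Psmb2, Psmb3 and Psmb4, which complete the ring without a cutting site of their own, had 0.16, 0.08 and 0.08.

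The immunosubunits were strongly detected in both genotypes. Psmb8 had signals of 33127 and 36739.6 (chr17:33811038-33811097, mm8), 0.20 apart and 0.15 at the second probe. Psmb9 had 26383 and 28029 (chr17:33792517-33792576), a difference of 0.14. Psmb10 had 36660.9 and 38622 (chr8:108824906-108824965), a difference of 0.13. All 3 were higher on the PAD4-deficient array by less than the scanner error of 0.20. Each was also set against the subunit it replaces, as the difference between their differences. Psmb8 exceeded Psmb5 by 0.06, Psmb9 exceeded Psmb6 by 0.02, and Psmb10 relative to Psmb7 was -0.04, each with an error of 0.29. Each of these distances was smaller than its error. The sum of signals cannot give the share of immunoproteasome, since the brightness of a spot also depends on its probe. Psmb11, the thymus counterpart of Psmb5 and Psmb8, which the array lists under an older name outside the rule, was not well above background on either array. Of the other genes on the list for thymic cortical epithelium, Foxn1 was also below background on both. Prss16 was dim, with signals of 80.5 and 129.6 (0.74, past 1.5-fold, but 0.51 and short of it with normexp). Ly75 had 505 and 467 (-0.06).

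**Figure D3:**
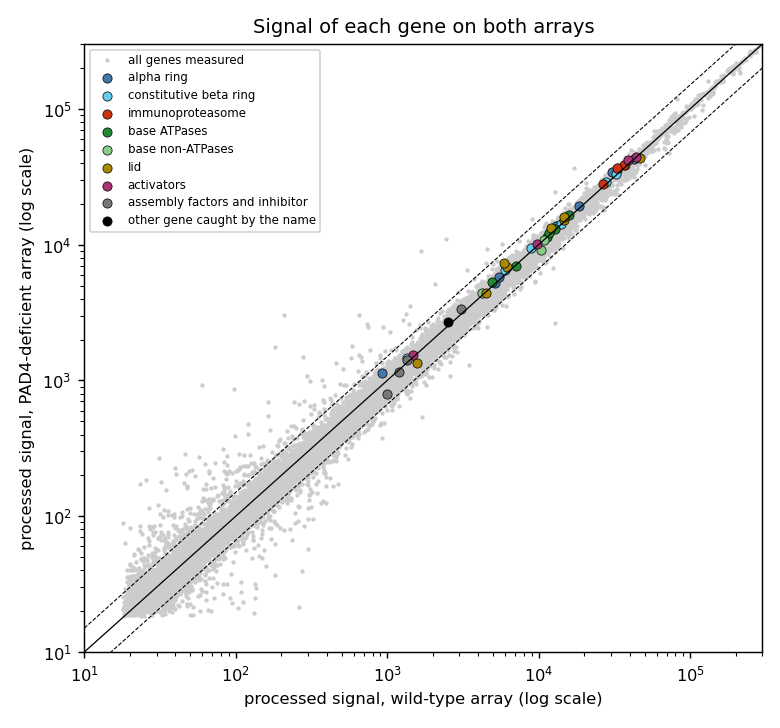
Processed signal of each gene on the wild-type array (horizontal) and on the PAD4-deficient array (vertical), both on log scales and without scaling between arrays; grey points are all measured genes, coloured points are the 44 members by role. The solid line is equality and the dashed lines are 1.5-fold; all members lie between the dashed lines, with signals from 798 to 46737.7.

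Psmb8 and Psmb9 lie next to the peptide transporter genes Tap1 and Tap2, which carry the peptides made by the proteasome to MHC class I. Psmb9 and Tap1 start 226 bases apart on opposite strands, so 225 bases of the Psmb9 window also lie within the 250 bases before Tap1. Tap1 had signals of 3935 and 2476 (chr17:33804121-33804180, mm8), a difference of -0.62 by its 1 probe. Tap2 had 5127 and 3977, a difference of -0.32. Both transporters were lower on the PAD4-deficient array by more than the scanner error, while both subunits were slightly higher. Psmb9 relative to Tap1 was 0.76 and Psmb8 relative to Tap2 was 0.52, each with an error of 0.29. Both pairs were picked once their values were known. Other measured genes of the interferon and peptide supply list included Irf8 (0.75, with 0.34 at its second probe). Irf1 had -0.20, with -0.44 at its second probe, and Erap1 had 0.19, with 0.07 at its second probe. B2m had 0.05. Gbp2 had 0.03, but -0.02 with normexp, and Tapbp had -0.06, but 0.03 with normexp. In that list 1 of 9 was higher by 1.5-fold or more (Irf8) and 1 lower by as much (Tap1), with a median of 0.03.

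The ATPases of the base, which unfold substrates and thread them into the core, had differences from 0.03 to 0.17 (6 of 6 above 0, median 0.09). Psmc5 had signals of 4897 and 5329 and differed by 0.17; its second probe gave 0.06. Psmc3 had 7036 and 6945, a difference of 0.03, or -0.02 with median scaling. Psmc1, Psmc2, Psmc4 and Psmc6 had 0.10, 0.09, 0.05 and 0.10; Psmc4 was -0.001 with median scaling. A second, dimmer probe of Psmc6 had -0.05.

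The base subunits without ATPase activity gave 2 values above 0 and 1 below. Psmd1 and Psmd2, the scaffolds that hold ubiquitin-like shuttle proteins, had 0.10 and 0.05. Psmd2 depended on the probe: its brighter probe had signals of 10798 and 10827, and the other had 3904 and 3198, a difference of -0.24. The mean of both was -0.09. Psmd4, a receptor for ubiquitin chains, had signals of 10417 and 9184 (chr3:95119413-95120011, mm8), a difference of -0.13, with -0.32 at a dimmer probe. Both probes of Psmd4 were thus below 0, the brighter one within the scanner error.

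The lid had the widest range of the subunit groups, from -0.18 to 0.35 (6 of 8 above 0, median 0.12). Psmd7, partner of the deubiquitinase Psmd14, had signals of 5928 and 7310.3 (chr8:110469631-110469690, mm8), a difference of 0.35. Its 2 other probes had 0.16 and 0.14, so the size of the Psmd7 difference rested on its brightest probe. Psmd14, which cleaves ubiquitin from substrates as they enter, had signals of 12099 and 13154, a difference of 0.17 with 0.14 at its second measured probe. Psmd13 had 1563 and 1335, a difference of -0.18 by its single probe (chr7:140737882-140738349). Psmd3 had 46737.7 and 43242, a difference of -0.06. Psmd13 and Psmd3 were the lid genes below 0, both within the scanner error. Psmd6, Psmd8, Psmd11 and Psmd12 had 0.19, 0.03, 0.16 and 0.09. Psmd8 was -0.02 with median scaling, and the dimmer probes of Psmd12 had up to 0.35.

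The activators lay between 0.07 and 0.17 (4 of 4 above 0, median 0.11). Psme1 and Psme2 form the interferon-inducible activator of the immunoproteasome. Psme1 had signals of 43688.8 and 44384 (chr14:54535428-54535487, mm8), a difference of 0.07. Psme2 had 38590.4 and 41812 (chr14:54541569-54541628), a difference of 0.17, and its second probe gave 0.19. Both partners were higher on the PAD4-deficient array by less than the scanner error. Psme3, the nuclear activator, had 1471 and 1539 and a difference of 0.11. Psme4, an activator linked to histone turnover, had 9689.85 and 10126.6 at its brightest probe, a difference of 0.11. Its 3 dimmer probes, with wild-type signals from 26.9 to 426, had -0.26, 0.26 and 0.29.

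The assembly factors and the inhibitor gave 2 values above and 2 below 0. Psmf1, which encodes a proteasome inhibitor and regulator, had signals of 1001 and 798 at its brightest probe (chr2:151421058-151421117, mm8), a difference of -0.28. Its 2 other probes, with wild-type signals of 745 and 67.2, had -0.31 and -0.30. All 3 probes of Psmf1 were therefore lower on the PAD4-deficient array, by -0.31 to -0.28. With normexp the dimmest probe had only -0.12, while the brightest had -0.25 and the other -0.29. The chaperones of base assembly Psmd5, Psmd9 and Psmd10 had 0.17, -0.01 and 0.13. Psmd9 was 0.002 with normexp and 0.03 with the mean over probes. Psmd10 lies on the X chromosome; its signals were 1348 and 1423, and the arrays differed in Xist as given. Psmc3ip was caught by its name alone, since it encodes a cofactor of meiotic recombination; it had 0.15, and without it the median of the other 43 members was 0.11.

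Several probes allowed a check within genes. Of 69 member probes, 66 were measured, 55 of them above 0, and none reached 1.5-fold. The other 3, of Psma2, Psmd11 and Psmd14, were not well above background on either array. Of the 17 genes with 2 or more measured probes, 13 had all probes on the same side of 0. The exceptions were Psmc6, Psmd2, Psmd9 and Psme4. The probes of Psmd2, Psmd7, Psmd12 and Psme4 lay over 0.2 apart. The remaining 27 genes rested on 1 measured probe. The coordinates of 41 measured probes spanned 60 or 61 bases, and those of 25 spanned more, so the latter match is split along the genome. The RefSeq table also lists pseudogene copies of Psma5, Psmb5, Psmb6 and Psmb7 and a second gene like Psme2 (Psme2b), whose transcripts, if any, these probes might not tell apart.

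**Figure D4:**
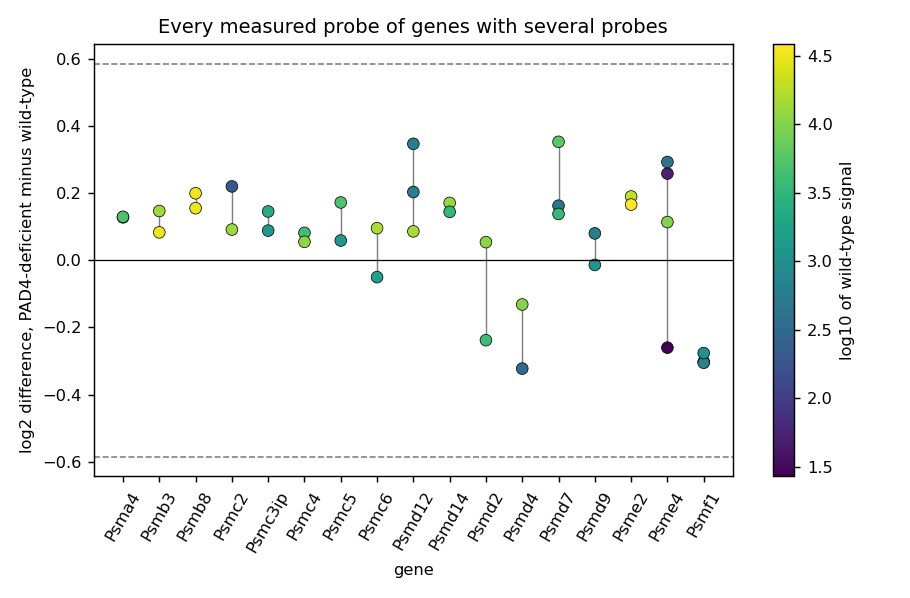
Log2 difference (PAD4-deficient minus wild-type, vertical) of every measured probe of the 17 genes with 2 or more (horizontal), coloured by the log10 of the wild-type signal, with dashed lines at 1.5-fold. The 3 probes of Psmf1 lie between -0.31 and -0.28, while the probes of Psme4 range from -0.26 to 0.29.

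Genes that work with the proteasome were also counted. The list held 26 measured genes of ubiquitin supply, substrate delivery, proteasome-bound enzymes and proteasome regulation. Of these 20 were above 0 (median 0.06), against 55.0% of all measured genes (median 0.02). By the brightest probe none differed by 1.5-fold in either direction, against 2.88% higher and 1.87% lower of all measured genes. A dimmer probe of Ufd1 was past 1.5-fold, at -0.63. Usp14 and Uchl5, deubiquitinases that dock on the base, had 0.23 and 0.21, with 0.06 at the lowest probe of Usp14. Akirin2, which brings proteasomes into the nucleus, had 0.21. The lowest were Zfand2a, a stress-induced proteasome adaptor, whose signals of 5285 and 3727 lay -0.45 apart (-0.11 at its second probe), and Uba1, the ubiquitin-activating enzyme, at -0.41, with 0.19 at its other probe. The proteasome gene regulator Nfe2l1, which encodes NRF1, had 0.07, the assembly factor Pomp 0.05 and the ubiquitin receptor Adrm1 0.00, with -0.47 at its second probe.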

How the data were processed

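Per the file headers, the authors read both 1-colour arrays (Agilent design 014868, build mm8) with Feature Extraction 9.5.3.1, and the deposited files give spot intensity on a linear scale after background subtraction and detrending, with an error per spot. Version 9.5 is named in the submitters' processing notes. Values in the deposited table are log2 and was checked to equal the log2 signal minus 9.669 (wild-type) and 9.621 (PAD4-deficient), with column medians of -3.59 and -3.53, so scale, centring and direction were settled. Here, log2 of the processed signal was averaged over a probe's unflagged spots, minus the 75th percentile of non-control probes (signals of 814 and 787). A probe was measured when well above background on both arrays (63.9% and 64.1% of probes were so on each). A gene took its brightest measured probe. Differences are PAD4-deficient minus wild-type, counted at 1.5-fold. Members keep the files' names; for the other genes, 24371 probes were named through an accession of the RefSeq table (GRCm38.p6), 6301 by symbol and 2426 by synonym, while 8072 stayed as in the files. Members, lists and roles were chosen with earlier results of these data known; all members may be named, and other genes by size of difference within fixed lists. The steps were tested on simulated data. Alternatives were normexp (offset 50), quantile, median, detected-probe percentile and loess (window 0.3) scaling, the deposited table, the mean over probes, 2 looser filters and another fold threshold on either side. Promoter windows come from RefSeq. Python 3.11.15, numpy 2.4.6, pandas 2.3.3, statsmodels 0.14.6 and, in R 4.3.3, limma 3.58.1 were used. A few genes of the lists are not reported here by name. The number of arrays limits the precision.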

Additional observations from a re-analysis of the deposited data

How the results depend on the processing

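No paired analysis was possible because each genotype has 1 array. None of the 396 member differences computed under the 9 alternatives moved by more than its scanner error, and 38 of 44 members kept their sign under all of them. That is a weak check, since the 2 looser filters left every member's value unchanged. The deposited table, median scaling and the detected-probe percentile each shift all genes alike. The scanner error was also larger than the main difference of all but 4 members. Of these, Psma5 fell within that error with loess and with median scaling. Psmc3, Psmc4, Psmd2, Psmd8 and Psmd9 changed sign under at least 1 alternative, and Psma2 was 0 with quantile normalization. Median scaling, which shifts all genes alike, gave 0.056 for the members' median and 0.054 without Psmc3ip; under the other 8 alternatives the first lay between 0.10 and 0.12. The base subunits without ATPase activity had a median of -0.002 with median scaling and -0.09 with the mean over probes. No alternative at 1.5-fold called a member; at 0.32 on the log2 scale, 2 members were called higher. Psmb9 relative to Tap1 ranged from 0.64 (normexp) to 0.76, and Psmb8 relative to Tap2 from 0.49 to 0.53. Signal over background limits the dim probes of Psme4 and the dimmest probe of Psmf1.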

Other observations

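The chaperones that build the core particle's rings stand on this array under older names, outside the rule, and were found through the RefSeq table. Psmg1 (listed as Dscr2) had signals of 2645 and 2893, a log2 difference of 0.18. Psmg2 (listed as Tnfsf5ip1) had 4666 and 5300.4, a difference of 0.23, and its second probe gave 0.15. Psmg3 had 5124 and 6140, a difference of 0.31, or 0.38 with normexp. All 3 were higher on the PAD4-deficient array and none reached 1.5-fold; Psmg2 and Psmg3 lay beyond the scanner error of 0.20. Psmg4 was not analysed here.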
